A study of Mus musculus with 8 samples.

Results

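Glucocorticoid receptor (GR) binding in the livers of calorically restricted mice was set against GR binding in livers of mice given corticosterone. The comparison asks whether the hormone, given to fed mice, takes GR to the same places as a shortage of food does. It used 4 of the 8 libraries of the series, namely 2 cal. res. and 2 CORT GR ChIP-seq libraries, each deposited as a list of called peaks. The 2 ctrl. libraries served as a reference and a FOXO1 peak list as an annotation. All livers came from male C57BL/6J mice on chow and were collected at zeitgeber time (ZT) 12, the onset of the dark phase.

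The cal. res. mice had been restricted stepwise from 12 weeks of age and received their daily food at ZT12. The CORT mice, also taken at 12 weeks of age, were handled for 2 weeks. They then received 5 mg/kg corticosterone intraperitoneally at ZT11 for 7 days under night-restricted feeding, and the ctrl. mice were night-restricted fed. The groups thus differed in food supply, in injection, in time on the regimen and, by the schedules the authors give, in age at collection. The authors report that restriction itself raised circulating corticosterone at ZT12, and they chose the injections to mimic that rise. The comparison is therefore not one of raised against unraised hormone. GR peaks of vehicle-injected mice were not analysed here. The authors describe the ChIP libraries as 2 biological replicates. No sources used here say whether each library came from 1 liver, so the 2 libraries of a group stand for the spread between libraries.

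GR is a nuclear receptor that is released from cytosolic chaperones when it binds a glucocorticoid, and it then enters the nucleus. There it binds DNA directly at the glucocorticoid response element (GRE), a palindrome of a repeated hexamer, or indirectly through other transcription factors. In hepatocytes it works at enhancers opened by C/EBP, HNF4 and forkhead factors and controls gluconeogenesis, amino acid catabolism and the acute-phase response. FOXO1 is a forkhead factor that is held out of the nucleus by insulin signalling and enters it on fasting.

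Overlapping rows of the 4 lists were merged into 45995 sites, and 12859 of them held a row in all 4 lists. The lists held 24915 and 20444 rows in cal. res. and 33451 and 48060 rows in CORT. The read total of each library was not analysed here, so no counting interval is given. Each row carries the fold enrichment of its summit over the local background as the peak caller gave it. Fold enrichments of separate libraries are not on a common scale, so each site was given its percentile within a list, and a site was called higher in a group when both lists of that group ranked it above both lists of the other.

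The libraries' identifiers follow one pattern in both cal. res. lists and another in both CORT lists, so that whatever this naming marks and the treatment cannot be told apart. The ctrl. libraries carried one identifier of each pattern. Sites near hepatocyte genes were plentiful, with 41 of the common sites lying within 50 kb of the start of 9 of 10 hepatocyte markers. By the same measure 8 sites lay near 5 of 20 markers of other liver cells.

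The sequences around the summits of the named sites with the widest rank gaps are shown first, since these are the pieces of DNA on which the groups differed most. Each stretch holds 120 bases of the plus strand of GRCm38 (mm10). Capitals mark every match, on either strand, to one of 8 short motifs. These are the GR hexamer AGAACA, the full GRE palindrome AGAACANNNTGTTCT with up to 2 mismatches (so a match need not hold the exact hexamer), the forkhead motif TGTTTAC, the STAT motif TTCNNNGAA, the HNF4 motif CAAAGTCCA with up to 1 mismatch, the C/EBP motif TTGCNNAA, the E-box CACGTG and the ETS motif CCGGAA. Sites whose 120 bases overlapped an annotated UTR were passed over, which left out the CORT-higher sites of Xbp1 and Mphosph9. The 4 cal. res.-higher stretches lay at chr3:73707591-73707710 (Bche), chr2:152362013-152362132 (Nrsn2), chr2:103492677-103492796 (Cat) and chr4:6222815-6222934 (Ubxn2b).
Bche: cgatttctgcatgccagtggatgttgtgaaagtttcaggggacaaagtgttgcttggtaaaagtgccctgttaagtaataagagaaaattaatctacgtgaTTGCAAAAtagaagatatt
Nrsn2: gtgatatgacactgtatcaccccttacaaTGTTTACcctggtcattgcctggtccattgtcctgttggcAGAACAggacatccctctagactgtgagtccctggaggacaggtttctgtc
Cat: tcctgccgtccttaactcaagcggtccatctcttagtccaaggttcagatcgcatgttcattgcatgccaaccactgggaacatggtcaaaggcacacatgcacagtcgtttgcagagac
Ubxn2b: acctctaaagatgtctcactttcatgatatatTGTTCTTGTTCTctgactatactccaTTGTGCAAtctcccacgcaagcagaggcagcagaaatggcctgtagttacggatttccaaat

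In these 4 stretches the GR hexamer appeared beside Nrsn2, with a forkhead motif, and beside Ubxn2b, as a tandem repeat followed by a C/EBP motif. The Bche stretch held a C/EBP motif, and none of the motifs was found in the Cat stretch. The 4 CORT-higher stretches lay at chr9:106892186-106892305 (Manf), chr2:84715510-84715629 (Zdhhc5), chr7:44986633-44986752 (Prmt1) and chr13:51849344-51849463 (Gadd45g).
Manf: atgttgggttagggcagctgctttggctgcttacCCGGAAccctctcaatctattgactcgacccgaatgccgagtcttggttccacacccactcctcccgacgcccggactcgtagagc
Zdhhc5: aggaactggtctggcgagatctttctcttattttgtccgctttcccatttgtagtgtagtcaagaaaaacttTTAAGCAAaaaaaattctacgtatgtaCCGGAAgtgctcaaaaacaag
Prmt1: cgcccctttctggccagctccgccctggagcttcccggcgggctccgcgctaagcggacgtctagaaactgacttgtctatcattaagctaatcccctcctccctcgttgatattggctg
Gadd45g: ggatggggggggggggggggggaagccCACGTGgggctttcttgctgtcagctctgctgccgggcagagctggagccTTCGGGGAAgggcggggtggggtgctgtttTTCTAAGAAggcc

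The GR hexamer was in none of these 4. An ETS motif lay in the Manf and Zdhhc5 stretches, and an E-box with a pair of STAT motifs in the Gadd45g stretch. Over the 200 bases around the summit, 20.4% of all 12859 common sites held the GR hexamer, 5.26% the GRE palindrome, 19.0% the C/EBP motif, 16.1% the HNF4 motif, 8.80% the STAT motif, 7.29% the ETS motif, 6.42% the forkhead motif and 5.49% the E-box. A match is a description of the letters and not of a factor bound there.

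At the common sites the lists of one group resembled each other more than those of the other group. The Spearman correlation over the 12859 sites was 0.807 between the cal. res. lists and 0.711 between the CORT lists. Between groups it lay between 0.511 and 0.615. Sites share their libraries and are not replicates, so these values describe the lists and carry no test.

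By the percentile within each list, 1169 sites were higher in cal. res., which is 9.09% of the common sites, and 5425 were higher in CORT, which is 42.2%. That split moved with list length. The common sites sat at a median percentile of 68.7 and 62.9 in the cal. res. lists and of 74.1 and 82.3 in the longer CORT lists. The ctrl. lists held 41400 rows (replicate 1) and 13667 rows (replicate 2). Their percentiles, given below in that order, are thus not on a common scale with each other or with the 4 lists. When the 4 lists were ranked over the common sites alone, 3676 sites (28.6%) were higher in cal. res. and 3136 (24.4%) in CORT. With each list first cut to its 20444 rows of smallest p, the length of the shortest, the within-list percentile gave 3041 and 2231 of 9498 common sites. All 1169 and all 3136 of the smaller counts were within the larger count of the same direction, and 90 sites were CORT-higher by the first ranking and cal. res.-higher by the second. Shares are given below by the rank among common sites unless the within-list percentile is named.

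The gaps were often small. Among the 1169 cal. res.-higher sites the groups stood 3.73 percentile points apart at the median, and 681 of them were under 5 points apart. Among the 5425 CORT-higher sites the median gap was 12.3 points, and it was under 5 points at 1502. Sites just inside the rule were separated by as little as 0.0021 points in cal. res. and 0.0024 points in CORT.

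**Figure D1:**
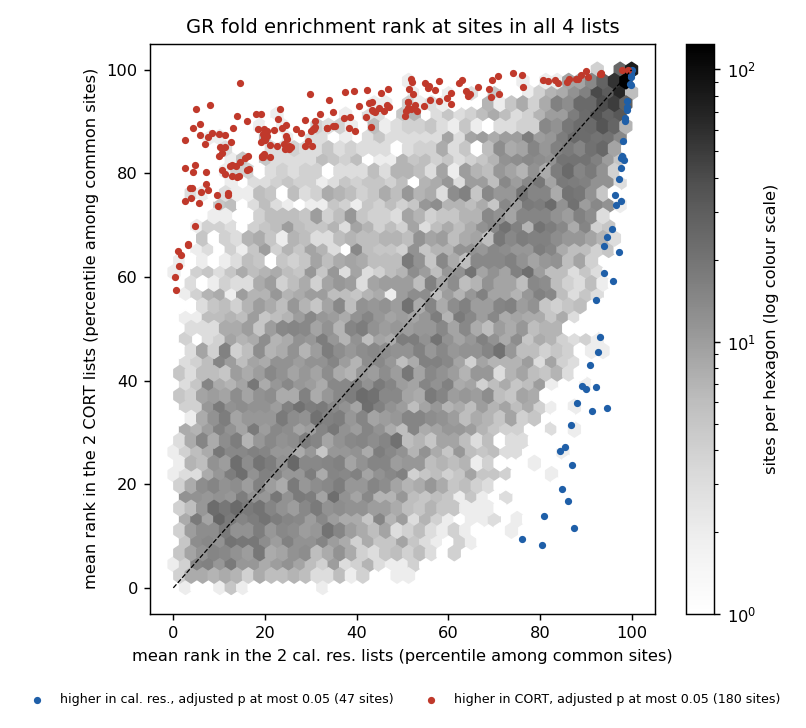
GR rank at the 12859 sites with a peak in all 4 lists. Each axis is the mean rank (percentile among these sites) in the 2 lists of a group, grey hexagons give the number of sites on a log colour scale, and coloured points are the 47 sites higher in cal. res. and the 180 higher in CORT at an adjusted p of at most 0.05. The coloured points lie along the edges of the cloud.

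A limma fit to normal scores of the ranks over all 12859 sites passed 47 sites as higher in cal. res. (0.366%) and 180 as higher in CORT (1.40%) at a Benjamini-Hochberg adjusted p of at most 0.05. At an unadjusted p under 0.05 the counts were 1323 and 1473. With 2 libraries a side the fit found 36.5% of simulated differences of 2 score units and 85.5% of differences of 3 units. No site passed in either direction when the scores came from the mean over a site's rows, from the within-list percentile, or from a fit without a mean-variance trend, so the calls rest on these choices. At an unadjusted p under 0.05 these fits gave 843 and 1088, 146 and 2505, and 1123 and 1384 sites. They also rest on single libraries. Without cal. res. replicate 1 the fit passed 0 cal. res.-higher and 14 CORT-higher sites, without cal. res. replicate 2 it passed 0 and 0, without CORT replicate 1 it passed 319 and 269, and without CORT replicate 2 it passed 807 and 565, the lone library being assumed to vary like the others. At an unadjusted p under 0.05 the fits without a cal. res. library gave 558 and 1132, and 502 and 1186.

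The 15 genes named for the widest cal. res.-higher gaps were headed by Bche, butyrylcholinesterase, a liver-made esterase of plasma. Its site lay in the gene's first kilobase, at chr3:73707410-73708459 in an intron. It stood at percentile 87.8 and 87.9 in the cal. res. lists and at 31.0 and 41.4 in the CORT lists, with fold enrichments of 12.6, 10.4, 4.98 and 4.64. Both cal. res. values were thus far above both CORT values, and the ctrl. lists at percentile 49.4 and 18.5 were on the CORT side. The score difference (cal. res. minus CORT) was 2.26 (SE 0.42, n = 2 per group, adjusted p = 0.0353).

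The second site lay 14.6 kb downstream of the start of Nrsn2 (chr2:152361863-152362306) and inside an intron of the neighbouring transcript Gm14164. Its percentiles were 92.4 and 90.5 in cal. res. against 21.2 and 70.1 in CORT (adjusted p = 0.0393). The CORT lists differed widely here, yet both were below cal. res. Cat encodes catalase, which breaks down hydrogen peroxide. Its intergenic site 7.61 kb upstream of the gene (chr2:103492521-103493027) stood at 84.4 and 84.1 in cal. res. against 16.7 and 60.5 in CORT, with an adjusted p of 0.0512 that missed the threshold.

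The site in an intron of Vav2 (chr2:27421088-27422103) was at percentile 93.8 and 87.0 in cal. res. against 31.0 and 70.1 in CORT (adjusted p = 0.0413). Sites near Ubxn2b, Spocd1, Nipal1 and Myom3 also passed, with adjusted p between 0.0425 and 0.0475. The last lay in an intron of Il22ra1, an interleukin receptor subunit, 13.8 kb upstream of the Myom3 start. The site beside Nipal1, a magnesium transporter, was in the gene's own intron and overlapped a FOXO1 peak.

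The other named cal. res.-higher sites did not pass. Selenop encodes selenoprotein P, the liver's selenium carrier. Its site 32.0 kb upstream of the gene (chr15:3236301-3236754) was at 83.7 and 82.1 in cal. res. against 3.15 and 64.1 in CORT (adjusted p = 0.0669). Sqor, a mitochondrial enzyme that oxidises hydrogen sulfide, had an intronic site at 88.3 and 82.2 against 41.3 and 64.7 (adjusted p = 0.0593). The rest, near Cobll1, F2r (the thrombin receptor), Slc22a15, Rab20 and Cdkn2aip, had adjusted p values up to 0.0881. Of the 15 sites, 7 passed, 6 overlapped a FOXO1 peak and 1 had a transcription start within 1 kb, and the sites lay at a median of 13.8 kb from the gene start. Their median percentile was 76.0 in the ctrl. list with 14 of them and 42.4 in the one with 7. Since these sites were picked for their gap, their p values are not independent of the choice.

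Xbp1 headed the CORT-higher sites. It encodes a transcription factor of the unfolded protein response. Its promoter site (chr11:5520293-5521260) covered the 5′ UTR and stood at percentile 18.4 and 15.3 in the cal. res. lists and at 96.8 and 98.2 in the CORT lists. The fold enrichments were 3.96 and 3.54 in cal. res. against 25.6 and 32.2 in CORT, so the site was among the weaker peaks of the first group and the strongest of the second. The ctrl. lists, of unlike length, were between, at percentile 83.1 and 44.3. The score difference (cal. res. minus CORT) was -2.91 (SE 0.37, n = 2 per group, adjusted p = 0.0135).

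Manf, which encodes a secreted protein of the endoplasmic reticulum stress response, followed. The site at its start (chr9:106891716-106892553) was at percentile 4.44 and 15.7 in cal. res. against 96.1 and 98.2 in CORT (adjusted p = 0.0170). The ctrl. lists had it at 84.2 and 21.9. Prmt1, an arginine methyltransferase, had a site just upstream of its start (chr7:44986091-44987404) at 2.08 and 15.0 in cal. res. against 94.7 and 96.9 in CORT (adjusted p = 0.0182).

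Gadd45g, a stress-inducible growth arrest gene, was the named CORT-higher gene without a transcription start within 1 kb of the site's centre. Its wide site (chr13:51844724-51850975) spanned the region around the gene start and stood at 30.7 and 23.3 in cal. res. against 96.1 and 97.4 in CORT (adjusted p = 0.0182). The ctrl. values of 48.5 and 49.2 lay between and were close to each other. Sites at the starts of the RNA-binding protein genes Hnrnpc and Hnrnpul1 and of Zdhhc5, a palmitoyltransferase, had the same order, with CORT values from 90.4 to 96.9 and cal. res. values from 4.93 to 16.1.

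The mitochondrial chromosome held 2 of the 15 named sites. They spanned 1-6666, nearest the start of mt-Nd2, and 10773-16299, nearest mt-Nd6, both subunits of respiratory complex I. At the first the percentiles were 16.7 and 4.89 in cal. res. against 92.3 and 92.9 in CORT, and at the second 12.5 and 0.739 against 92.6 and 93.4. Here the ctrl. lists stayed low, at 13.7 and 30.4 for the first and 7.96 and 21.9 for the second. Adjusted p was 0.0279 and 0.0244. These sites are several kilobases wide, so the nearest start is a label only. Their gap rests on the fold enrichment. With rows ranked by p-value instead, the rank difference (cal. res. minus CORT) went from -75.8 to -0.49 points at the first and from -78.5 to -0.51 points at the second.

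All 15 named CORT-higher sites passed, with adjusted p between 0.0135 and 0.0301, 14 had a transcription start within 1 kb and 2, both mitochondrial, overlapped a FOXO1 peak. These 15 sites were also picked for their gap, so their p values are not independent of the choice. Their median percentile was 12.2 and 15.3 in the cal. res. lists, 94.7 and 96.1 in the CORT lists, and 79.5 and 40.1 in the ctrl. lists. The remaining names were Mphosph9, Rdh5, Pan2, Osbp, Ormdl2 and Txlna. Rdh5 is a retinol dehydrogenase, Pan2 a deadenylase of mRNA, Osbp an oxysterol-binding protein, and Ormdl2 a regulator of sphingolipid synthesis.

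**Figure D2:**
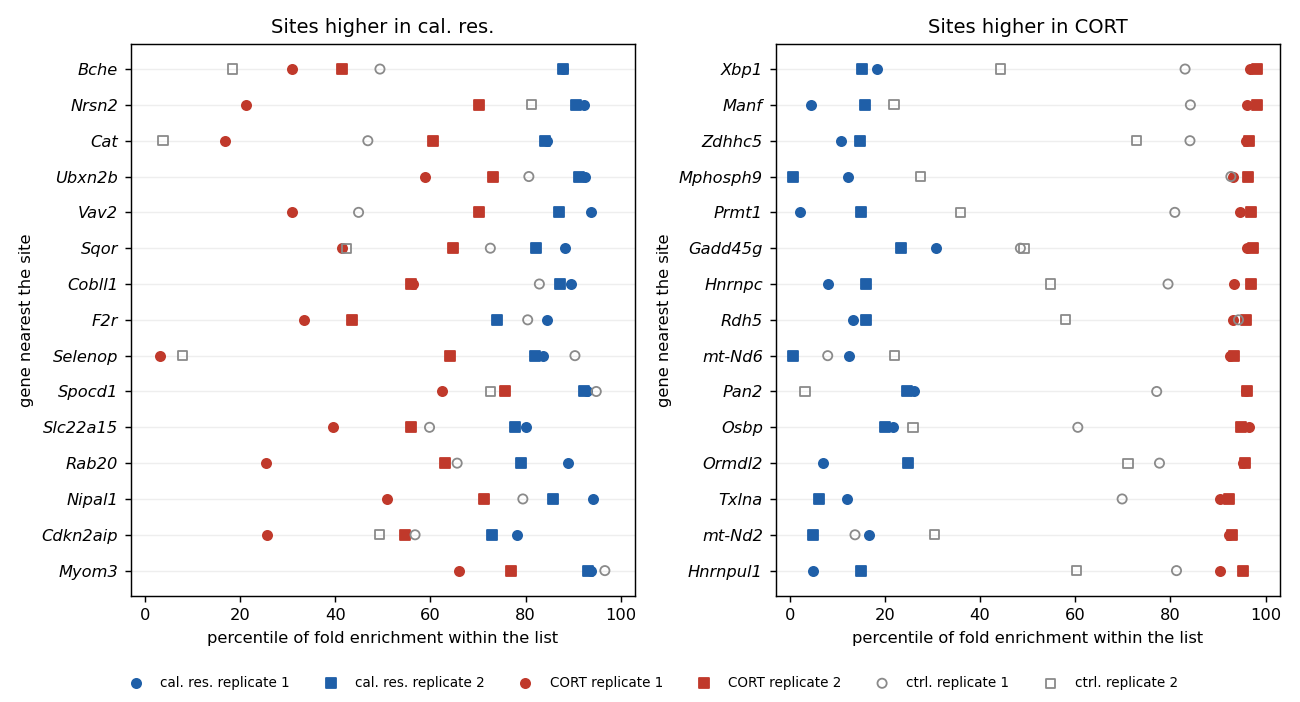
Percentile of fold enrichment within each list at the 15 sites with the widest gap in each direction, 1 row per nearest gene. Filled points are the cal. res. and CORT lists and open grey points the ctrl. lists where they held a peak. The CORT-higher sites stood at 90.3 to 98.2 in the CORT lists and at no more than 30.7 in the cal. res. lists, while the CORT values of the cal. res.-higher sites ranged from 3.15 to 77.0.

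Of the features measured, a nearby transcription start gave the widest difference between the groups. A start lay within 1 kb of 57.4% of the CORT-higher sites, 12.9% of the cal. res.-higher sites, 29.6% of the others and 31.6% of all common sites. Among the sites that passed the test it was 80.6% of the 180 and 6.38% of the 47. Read the other way, 44.3% of the 4061 sites within 1 kb of a start were CORT-higher and 11.7% cal. res.-higher. At the 816 sites over 50 kb from a start, 42.2% were cal. res.-higher and 13.4% CORT-higher.

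Within each list, sites at starts were compared with all other sites. In the cal. res. lists the median rank at starts was 24.8 points lower in both libraries. In the CORT lists the difference was 9.04 and -1.43 points, so CORT replicate 1 ranked starts above other sites and replicate 2 about level. The means were -24.8 ± 0.0014 and 3.80 ± 7.40 points (SD, n = 2), a difference of -28.6 points. The groups did not overlap. An exact two-sided permutation test over 4 libraries cannot give less than p = 0.33, which it gave (adjusted p = 0.417 over 10 features).

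The ctrl. lists carry both identifier patterns, and their ranks at starts are set beside those of the groups. At the 8113 common sites with a peak in both ctrl. lists, those within 1 kb of a start had a median rank of 28.9 and 29.5 in cal. res., 36.9 and 44.3 in ctrl., and 49.4 and 42.6 in CORT. The ctrl. library named like the cal. res. libraries ranked starts higher than the one named like the CORT libraries. Over all these sites the difference between the ctrl. libraries had a Spearman correlation of -0.05 with the difference between the groups. After subtraction of the ctrl. rank of the same naming pattern, 70.6% of the 2387 cal. res.-higher and 73.2% of the 2079 CORT-higher sites there kept their direction, and 10.3% and 11.2% turned. These sites had been picked as separated, and both lists of a group lost the rank of the same ctrl. library. Over all 8113 sites, 37.1% were cal. res.-higher and 33.6% CORT-higher after subtraction, beside 29.4% and 25.6% before. Whether the naming pattern plays a part was not tested.

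**Figure D3:**
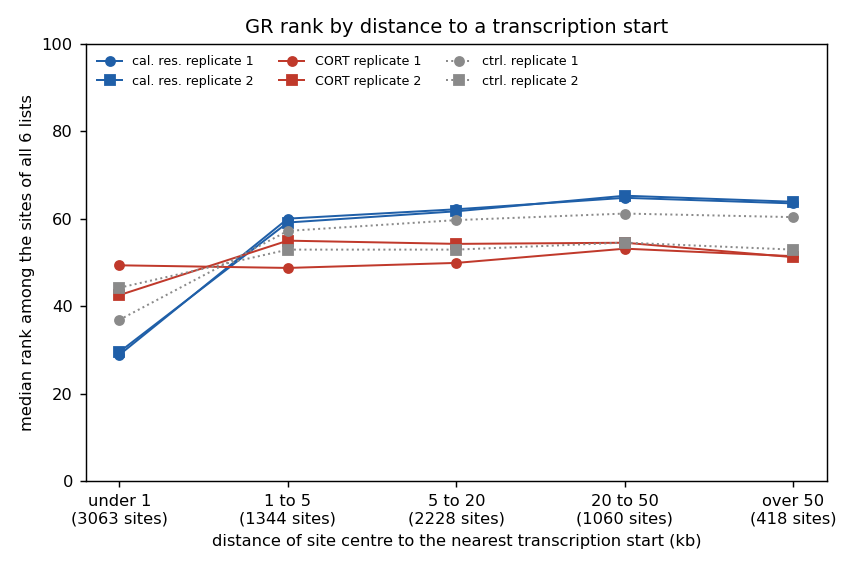
Median rank by distance of the site centre to the nearest transcription start (kb), for the 8113 sites with a peak in the 4 lists and in both ctrl. lists. Lines join the 5 distance classes of 1 list. Under 1 kb the cal. res. lists stand at 28.9 and 29.5, below the ctrl. and CORT lists, and beyond 1 kb they stand above them.

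FOXO1 peaks, called on pooled cal. res. libraries, overlapped 53.6% of the cal. res.-higher sites, 34.8% of the CORT-higher sites and 42.3% of all common sites. Among the sites that passed the test the shares were 74.5% of 47 and 37.8% of 180. Away from starts, where the overlap was higher in general, they were 55.1% and 41.8%. In every list sites with a FOXO1 peak outranked those without, by a median of 36.0 and 35 points in cal. res. and 26.7 and 27.3 points in CORT. The group means of 35.5 ± 0.72 and 27.0 ± 0.43 points (SD, n = 2) differed by 8.49 points (exact permutation p = 0.33, the smallest possible). Without the sites at starts the difference was 3.37 points. Both FOXO1 libraries came from cal. res. livers and share the naming pattern of the cal. res. GR libraries.

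The GRE palindrome followed the same course. It lay in 8.19% of the cal. res.-higher and 2.65% of the CORT-higher windows. Among the sites that passed the test it was in 31.9% of 47 and 3.89% of 180. Away from starts the shares were 8.49% and 4.79%, and among the sites that passed 34.1% of 44 and 11.4% of 35. Sites with it outranked those without by 33.2 and 34.6 points in cal. res. and, in CORT, by 19.3 and 25.7 points. Away from starts these became 25.5 and 26.6 against 22.4 and 24.8 points. The difference between the group means was 11.4 points over all sites and 2.40 points away from starts. The hexamer was in 27.5% of the cal. res.-higher and 14.2% of the CORT-higher windows, and away from starts in 28.3% and 21.8%.

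Motifs of hepatocyte factors leaned to cal. res. as well. The HNF4 motif was in 23.0% of cal. res.-higher and 8.86% of CORT-higher windows, the C/EBP motif in 23.9% and 13.5%, and the forkhead motif in 9.06% and 3.44%. Away from starts the shares were 23.5% and 13.8% for HNF4, 24.6% and 21.4% for C/EBP, and 9.18% and 4.79% for forkhead. In rank terms the forkhead gap between groups was 14.4 points over all sites and 8.23 points away from starts, and the C/EBP gap fell from 9.16 to 1.0 points. The ETS motif, frequent in promoters of housekeeping genes, leaned the other way, with 3.26% of cal. res.-higher and 12.2% of CORT-higher windows. Away from starts these shares were 2.34% and 4.86%, and the ETS gap between groups went from -18.1 to -9.26 points.

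The STAT motif was in 6.75% of the cal. res.-higher windows, 8.20% of the CORT-higher and 10.4% of the others. Away from starts it was in 7.18% of the cal. res.-higher and 11.7% of the CORT-higher windows, and among the sites that passed the test in 2.13% of 47 and 9.44% of 180. By rank the libraries of each group were far apart. Sites with it outranked those without by 14.3 and 4.45 points in cal. res. and, in CORT, by 18.3 and 1.05 points, so the replicate 1 lists of both groups were high and the replicate 2 lists low. The groups overlapped, and the difference of -0.29 points had p = 1 by the exact permutation test. Away from starts the difference was -5.55 points, and the groups overlapped there as well. For the E-box the difference over all sites was 0.49 points, and the groups overlapped too. Away from starts the groups did not overlap. There the gaps for the E-box were 6.03 and 3.69 points in cal. res. and -3.75 and -1.61 points in CORT. The difference of 7.54 points had p = 0.33 by the exact permutation test, the smallest possible.

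**Figure D4:**
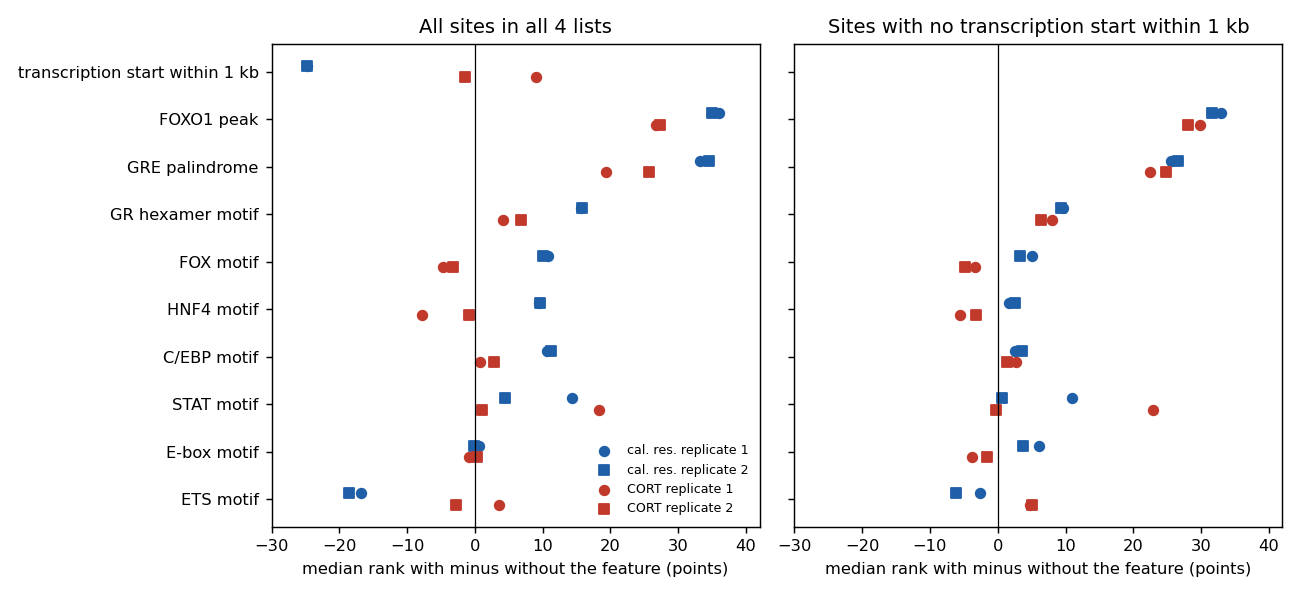
Median rank of sites with a feature minus that of sites without it (points), 1 point per list, over all 12859 common sites (left) and over the 8798 without a transcription start within 1 kb (right). The cal. res. lists stand at -24.8 for a nearby start while the CORT lists stand at 9.04 and -1.43, and most motif differences narrow in the right panel.

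Sites near chosen genes were then counted, in 17 lists of genes of liver metabolism and hormone response. The background is the 9753 common sites within 50 kb of a protein-coding gene start, of which 24.9% were cal. res.-higher and 27.9% CORT-higher. Away from transcription starts the background was 34.3% and 16.3% of 5925 sites, and at starts 10.4% and 46.0% of 3828. Several sites can belong to 1 gene, so the counts describe sites and not independent genes. Some genes are in more than 1 list, so the lists are not independent either. Foxo1, Foxo3, G6pc and Pck1, for example, count both as gluconeogenesis and as insulin and FOXO target genes. Genes given below by their counts alone were picked after the counts were seen, while sites given with percentiles follow the naming rule.

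Sites near genes of glucose uptake, glycolysis and glycogen were cal. res.-higher at 21 of 44 and CORT-higher at 4, with a median rank difference of 7.22 points. Away from starts, 19 of 33 were cal. res.-higher and 0 CORT-higher. Slc2a2, the hepatic glucose transporter, had 4 of its 7 sites cal. res.-higher. Pdk4, a kinase that shuts pyruvate dehydrogenase, had 3 of 4, and so did Ppp1r3g, a glycogen-targeting subunit of protein phosphatase. For Mlxipl, the carbohydrate-responsive factor ChREBP, it was 3 of 6. The sites named by the rule were an intronic one of Gbe1, the glycogen branching enzyme, at percentile 77.0 and 89.0 in cal. res. against 52.0 and 65.4 in CORT (adjusted p = 0.103), and the promoter of Ppp1r3c. The latter went the other way, at 50 and 42.2 in cal. res. against 90.5 and 97.5 in CORT, and passed (adjusted p = 0.0475).

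Insulin signalling and FOXO target genes had 29 of 72 sites cal. res.-higher and 13 CORT-higher, and away from starts 26 and 6 of 56. G6pc, the last enzyme of glucose output, had 4 of 6 sites cal. res.-higher, Irs2, an insulin receptor substrate, 3 of 4, and Sesn2, a sestrin, 3 of 3. The named site in an intron of Pik3r1, a regulatory subunit of PI3-kinase, was at 70.2 and 66.4 in cal. res. against 32.4 and 31.1 in CORT (adjusted p = 0.112). The Insr promoter site was at 52.7 and 41.5 against 81.1 and 87.8 (adjusted p = 0.241). Trib1, a pseudokinase, had 3 of 8 sites CORT-higher and 0 cal. res.-higher.

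Fatty acid oxidation and ketogenesis genes had 21 of 57 sites cal. res.-higher and 10 CORT-higher. Near Cpt1a, the carnitine transferase of mitochondrial import, 3 of 5 were cal. res.-higher, and both sites of Fgf21, a fasting hormone, were too. At Ppara, the nuclear receptor of the fasting response, 3 of 8 were CORT-higher and 0 cal. res.-higher. The site in Acot1, a thioesterase, was at 91.2 and 79.4 in cal. res. against 46.5 and 77.0 in CORT (adjusted p = 0.0987). The site upstream of Cyp4a14, a fatty acid hydroxylase, stood at 89.3 and 86.2 against 79.4 and 66.4 (adjusted p = 0.140), with a ctrl. value of 12.7 in the 1 ctrl. list that held it. Neither passed.

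Inflammation and acute-phase genes showed the reverse order. Of their 53 sites 8 were cal. res.-higher and 23 CORT-higher, 5 of the latter passed the test, and away from starts the counts were 6 and 18 of 41. All 3 sites of Orm1 (orosomucoid), both sites of Hp (haptoglobin) and both of Hpx (hemopexin) were CORT-higher. So were 5 of 6 sites of the fibrinogen genes Fga, Fgb and Fgg. Saa1, Saa3 and Saa4, the serum amyloid A genes, each had 1 CORT-higher site. The intronic site of Il1r1, the interleukin-1 receptor, was at 40.8 and 38.6 in cal. res. against 85.4 and 92.3 in CORT (adjusted p = 0.0996). The site at Irf8 was at 32.5 and 2.71 against 80.6 and 90.7 (adjusted p = 0.0733). Other genes of the list differed from these. Both sites of Il1rn, the 1 site of Tnfaip3, 1 of 2 sites of Crp and 1 of 5 of Dusp1 were cal. res.-higher, with 0 CORT-higher. Of the 6 sites of Nfkbia 0 were higher in either group. Tsc22d3, an anti-inflammatory GR target also known as Gilz, had 2 of 3 sites cal. res.-higher. Its named site stood at 93.8 and 90.0 in cal. res. against 58.1 and 86.2 in CORT (adjusted p = 0.0841).

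Glucocorticoid feedback genes and classic targets had 10 of 52 sites cal. res.-higher and 18 CORT-higher, with 3 of the latter passing. Fkbp5, a chaperone that limits GR activity, had 1 and 3 of 5. Angptl4 had both sites CORT-higher, as did Mt2, a metallothionein, with rank differences (cal. res. minus CORT) of -19.7 and -0.20 points and of -11.9 and -1.97 points. Other genes of the list went the other way. Mertk had its 1 site cal. res.-higher, Hsd11b1 1 of 2 and Serpina6 1 of 4, all with 0 CORT-higher. Tsc22d3 and Dusp1, counted above, belong to this list too. The site at the gene of GR itself, Nr3c1, was at 30.7 and 24.5 in cal. res. against 86.2 and 83.2 in CORT (adjusted p = 0.121). The ctrl. lists were at 84.0 and 87.9 there, on the CORT side.

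Amino acid breakdown and urea cycle genes had 18 of 81 sites cal. res.-higher and 25 CORT-higher, and 21 of 65 CORT-higher away from starts. All 6 sites of Ass1, argininosuccinate synthase of the urea cycle, were CORT-higher. Its named site was at 58.4 and 55.6 in cal. res. against 93.8 and 94.9 in CORT (adjusted p = 0.0689). That site is a merged block of 24715 bp, and its rank difference (cal. res. minus CORT) of -45.1 points was -7.33 points with the mean over its rows, -20.5 points without CORT replicate 1 and -14.5 points after subtraction of the ctrl. ranks. Agxt, an aminotransferase that detoxifies glyoxylate, had 4 of 5 sites cal. res.-higher, the named one at 74.1 and 80.9 against 46.5 and 67.9 (adjusted p = 0.146). Clock genes had 11 of 43 sites cal. res.-higher and 18 CORT-higher. The promoter site of Arntl, which encodes BMAL1, was at 47.9 and 50.7 against 92.9 and 93.8 (adjusted p = 0.0672), and that of Cry2 at 29.1 and 50.8 against 82.0 and 91.3 (adjusted p = 0.148).

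Hepatocyte markers had 8 of 41 sites cal. res.-higher and 16 CORT-higher. The Hnf4a promoter passed (adjusted p = 0.0383), at 59.9 and 61.9 in cal. res. against 95.4 and 98.3 in CORT. The 8 sites near markers of other liver cells were 3 cal. res.-higher and 0 CORT-higher. Hepatocyte transcription factors had 17 and 22 of 79, among them the Xbp1 promoter, and coregulators 5 and 6 of 23. In the last list the site in Ncoa2, a steroid receptor coactivator, passed (adjusted p = 0.0281) at 10.2 and 30.6 in cal. res. against 94.9 and 95.8 in CORT.

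The remaining lists were counted in the same way. Gluconeogenesis genes had 18 of 59 sites cal. res.-higher and 12 CORT-higher, lipogenesis 19 and 16 of 63, cholesterol and bile acid genes 19 and 18 of 79, and growth hormone and STAT5 signalling 12 and 12 of 55. For lipogenesis the counts were 19 and 5 of 45 away from starts and 0 and 11 of 18 at starts. For cholesterol and bile acid genes they were 17 and 8 of 61 and, at starts, 2 and 10 of 18. Autophagy and lysosome genes had 11 and 9 of 34 and apoptosis genes 8 and 6 of 27. In these lists the Uvrag promoter site, of an autophagy regulator, passed as CORT-higher (adjusted p = 0.0400) at 47.5 and 30.1 against 94.2 and 95.0. The Fasn promoter, of fatty acid synthase, was at 50.9 and 45.6 against 96.2 and 90.6 (adjusted p = 0.0764).

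**Figure D5:**
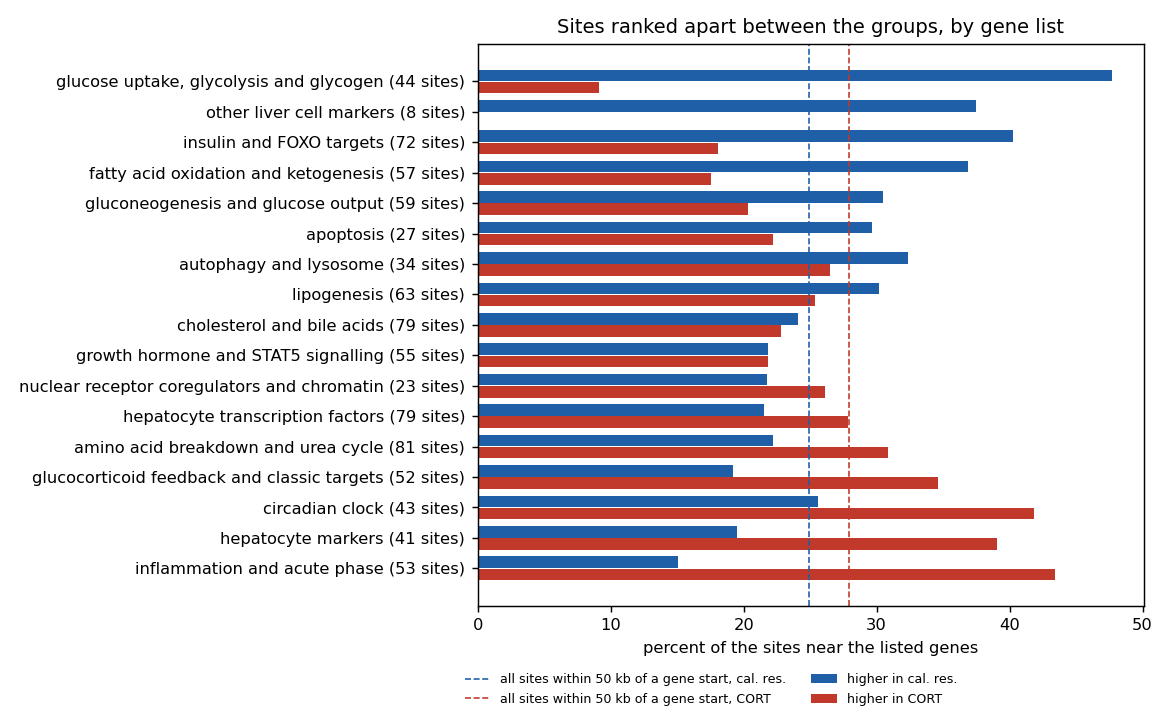
Percent of common sites within 50 kb of the start of the listed genes that were higher in cal. res. (blue bars) or in CORT (red bars). Dashed lines give the same shares over all 9753 such sites, 24.9% and 27.9%. The list of glucose uptake, glycolysis and glycogen has the longest blue bar (21 of 44 sites) and that of inflammation and acute phase the longest red bar (23 of 53).

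Peaks found in both lists of one group and in neither of the other numbered 182 for cal. res. and 5071 for CORT. This count follows list length, and with each list cut to its 20444 strongest rows it was 1367 and 1260. The cal. res. sites were weak, at a median percentile of 30.7 and 27.9, and 20 of them stood above the list median in both lists. Of the CORT sites 760 did. A ctrl. peak was present in at least 1 ctrl. list at most sites of either kind, mainly in the longer one. Ctrl. replicate 1 held a peak at 65.4% of the 182 and 67.9% of the 5071, and ctrl. replicate 2 at 12.1% and 11.9%. Neither ctrl. list had one at 33.5% of the 182 and 30.8% of the 5071.

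The strongest CORT-only site lay near 2010003K11Rik on chromosome 19, at percentile 99.6 and 99.7 with fold enrichments of 53.7 and 71.4. The site at Saa2, an acute-phase serum amyloid, had fold enrichments of 23.8 and 89.2. An intronic site of Fkbp5 was at percentile 94.9 and 98.5 and had a peak in neither ctrl. list. Chaf1b, a chromatin assembly subunit, and Fetub, a liver-secreted fetuin, were next to the others named. Among cal. res.-only sites, that near Oxtr, the oxytocin receptor, led at percentile 89.7 and 77.8, and both ctrl. lists held it at 63.0 and 36.4. The others named lay near Zar1l, Colca2, Lrrc61 and Pink1, a mitochondrial kinase. FOXO1 peaks overlapped 14.8% of the cal. res.-only and 3.79% of the CORT-only sites, and a transcription start lay within 1 kb of 19.8% and 36.3%.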

How the data were processed

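The authors aligned paired reads to mm10 with BWA and removed duplicates and multimappers. They called peaks per library with MACS2 at a q-value of 0.1 and removed blacklisted regions. The largest q in the 6 GR lists was 0.0998. Deposited lists give each summit's fold enrichment (a ratio over local background) and its −log10 p and q-values. For FOXO1 the authors merged 2 libraries before calling at a stricter q, so that list has no replicates. Input controls are not given in the sources used here.

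Rows of the 4 lists overlapping by at least 1 base were merged. A site took the highest fold enrichment of its rows in a list. All row ends lay within the chromosome lengths of the GRCm38 reference. Sites were annotated with GENCODE vM21 by the nearest protein-coding gene start within 50 kb of the centre, and motifs were searched in 200 bases around the summit. Ranks among common sites were turned into normal scores and fitted with limma 3.58.1 (R 4.3.3, trended empirical Bayes) over all common sites, with Benjamini-Hochberg adjustment at 0.05. Features were tested by exact permutation over libraries. Code was tested on simulated data. Other work used Python 3.11.15, pandas 2.3.3, SciPy 1.17.1 and pysam 0.24.0.

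Named genes were the first 15 in each direction by rank gap, from sites separated on both rankings, in the upper 50% of common sites in both lists of the higher group, and within 50 kb of a gene start. Each gene list named its 2 widest gaps, and one-group sites the 5 with the highest mean percentile. Genes, lists and sites were chosen with earlier results of these data known. Alternatives covered q, fold, overlap, width, summit range, gap, list length, ranking, ctrl. subtraction, each library left out, and the replicate block.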

Additional observations from a re-analysis of the deposited data

How the results depend on the processing

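Only 2 libraries a group limit every statement here, read totals were not analysed here, and sites are not independent. The 61 named sites gave 724 values under the alternatives that kept them, of which 0 turned direction and 155 moved by more than the spread between libraries. The shrinkage was over 2 times at the 2 mitochondrial sites ranked by p (-0.49 and -0.51 points left), at Ass1 (-7.33) and Cflar (-25.6) with the mean over rows, at Ass1 without CORT replicate 1 (-20.5), and after ctrl. subtraction at Ass1 (-14.5), Mphosph9 (-27.8), Arntl (-24.9), Cry2 (-19.2), Fasn (-23.9) and Cdkn2aip (18.4). The 12859 common sites became 7882 at a q of at most 1e-05, 7169 at a fold enrichment of at least 5 and 7414 at a width of at most 1000 bp, and 13576 to 16315 when 1 library was left out. Cal. res.-higher sites (1169) became 774 at that fold, 488 at a gap of at least 5 points, 3041 with lists cut to equal length, 3676 when ranked among common sites and 4275 after subtraction of the ctrl. library of the same naming pattern, which could be done at 8113 sites (709 and 3690 there without it). CORT-higher sites (5425) became 2830 at that q, 2763 at that fold, 2625 at that width, 2231 with equal lists, 3136 among common sites and 1656 after ctrl. subtraction, so the side with more sites changed with ranking, list length and ctrl. subtraction. Sites of cal. res. alone became 1367 and those of CORT alone 1260 with equal lists. With 1 library left out, which leaves fewer lists to separate, the ranges were 1918 to 4235, 6658 to 9381, 549 to 1348 and 6318 to 18059 in that order.

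The limma calls (47 cal. res.-higher, 180 CORT-higher) were 0 and 0 with the mean over rows (843 and 1088 at an unadjusted p under 0.05), with the within-list percentile (146 and 2505) and without the trend (1123 and 1384), and 76 and 241 when ranked by p. On centred log2 fold enrichment they were 158 and 322, at a width of at most 1000 bp 1 and 37, and at a fold of at least 5 they were 35 and 116. Leaving out 1 library gave 0 to 807 and 0 to 565. The cause was not tested. With the replicate block the counts were 565 and 838. Sources used here do not tie libraries of one number together, and differences between replicates correlated at r = 0.0945 across sites, so the numbers were not taken as pairs. Of 10 feature differences in rank, those of the STAT motif (1.17) and the E-box (-1.68) turned sign in 100-base windows, and the others kept theirs in the windows and equal lists tried.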

Other observations

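The promoters of Xbp1 and Manf headed the CORT-higher sites, and further genes of protein folding in the endoplasmic reticulum were looked up after that was seen, so no test is given. Of 39 common sites near 19 of 25 such genes, 9 were cal. res.-higher and 22 CORT-higher, with 4 passing the limma test as CORT-higher. Over all common sites 1.40% passed in that direction. All counts given here include Xbp1 and Manf themselves, and 5 of the CORT-higher sites lay near Xbp1. The passing sites were the promoters of Xbp1, Manf, Hyou1 and Dnajb9. At transcription starts 16 of 19 were CORT-higher and 1 cal. res.-higher, beside 46.0% and 10.4% of all sites at starts near a gene. Away from starts the counts were 6 and 8 of 20. The Hyou1 promoter, of an endoplasmic reticulum chaperone, stood at percentile 10.3 and 2.59 in cal. res. against 88.8 and 91.6 in CORT (adjusted p = 0.0317). The Dnajb9 promoter stood at 1.81 and 0.213 in cal. res. against 86.8 and 81.5 in CORT (adjusted p = 0.0371). The promoter of Atf6, a sensor of endoplasmic reticulum stress, ran the other way, at 83.3 and 89.1 in cal. res. against 73.7 and 80 in CORT (adjusted p = 0.187). At Herpud1, whose product acts in the removal of misfolded proteins, 5 of 6 sites stood at percentile 72.4 or above in all 4 lists.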
